A study of Mus musculus with 56 samples.

Results

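Glucose made by the liver leaves through a short set of enzymes and carriers, and 8 of their genes were examined in mouse liver: Pck1, G6pc, Fbp1, Pcx, Slc37a4, Pklr, Pfkfb1 and Slc2a2. They were chosen by symbol for their place in gluconeogenesis and in liver glycolysis, with the first listed transcript taken for each gene, and all 8 were found among the 23813 genes of the deposited expression table. RNA was measured in 12 livers of male mice, 4 biological replicates in each of 3 groups. The diet of every mouse was low in iodine and contained propylthiouracil (PTU), an inhibitor of thyroid hormone synthesis that renders mice hypothyroid. Hypothyroid wild-type mice (WT, PTU) received vehicle, hyperthyroid wild-type mice (WT, PTU_T3) were injected intraperitoneally with the active hormone triiodothyronine (T3) during the last days, and the third group were hypothyroid L-NCORdeltaID mice (PTU). L-NCORdeltaID mice carry, in liver, a form of the corepressor NCOR1 that lacks the domains contacting thyroid hormone receptors, and were kept on a mixed C57BL/6;129S background. The labels give no strain for the WT mice of these libraries, the diet was available ad libitum, and a fast before collection is not described. Ages are not given by library. Over its mice, the paper lists a lower mean age and a higher mean liver weight for hypothyroid mutants than for hypothyroid or hyperthyroid WT. The part of age in the mutant comparisons was not tested. The mutant was studied without T3 only, so an effect of T3 in the mutant cannot be given.

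Gluconeogenesis turns pyruvate, lactate, glycerol and amino acid carbon into glucose. Pyruvate carboxylase (Pcx) and cytosolic phosphoenolpyruvate carboxykinase (Pck1) bypass the last step of glycolysis, fructose-1,6-bisphosphatase (Fbp1) reverses phosphofructokinase, and the catalytic subunit of glucose-6-phosphatase (G6pc) releases free glucose inside the endoplasmic reticulum, into which Slc37a4 carries its substrate. Liver pyruvate kinase (Pklr) and the bifunctional enzyme Pfkfb1, which makes and degrades fructose-2,6-bisphosphate, control the opposite flow, and Slc2a2 (GLUT2) is the glucose carrier of the hepatocyte membrane. Thyroid hormone is known to raise hepatic glucose output, and Pck1 and G6pc are textbook targets of glucagon, cyclic AMP, glucocorticoid and insulin signals.

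Expression is given as RPKM, a read level scaled for transcript length and library size, so that genes can be compared with each other. In hypothyroid WT liver, Pck1 was the most abundant of the 8 at 1044 ± 220 RPKM (mean ± SD, n = 4 mice in every group here), followed by Fbp1 at 702 ± 99.9. The other members except Pfkfb1 lay between 131 and 185 RPKM, in the order Pklr, Slc2a2, Pcx, Slc37a4 and G6pc. Each of these differed from the next by less than the larger SD of the pair, except that Pcx (157 ± 14.1) lay above Slc37a4 (133 ± 11.1). Pfkfb1 was the lowest, at 16.6 ± 1.92 RPKM.

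Libraries differed in ways that bear on these values. Relative depth, read from the steps between low RPKM values, ran from 0.681 to 1.364 of hypothyroid WT replicate 1, was lowest in the T3 libraries (0.681 to 0.835) and highest in the mutants (1.218 to 1.364). T3 replicate 3 held pancreatic RNA, with 4 acinar markers summing to 692 RPKM against 3.20 to 16.6 in the other T3 livers. Hypothyroid WT replicate 3 had 57.7 RPKM of Dio1, a T3-induced deiodinase, against 0.719 to 8.98 in the other hypothyroid WT livers and 459 to 641 with T3. The summed level of 8 hepatocyte markers was 43587 to 55872 RPKM in hypothyroid WT, 24668 to 33283 with T3 and 37365 to 42730 in the mutants. Albumin (Alb) alone ran from 11609 to 37284 RPKM over the 12 livers. By the test used below, 2 of the 8 markers (Alb and Ttr) were lower with T3. Alb was the largest part of the sum, with means of 31804 RPKM in hypothyroid WT and 14324.5 with T3. The other markers were not called. Cps1 and Trf had negative log2 differences with T3 (-0.38 and -0.33), and Apoa1, Apob, Serpina1a and Fgb positive ones (0.12, 0.06, 0.36 and 0.67). The summed level of 6 macrophage markers was 42.2 to 59.9 RPKM in hypothyroid WT, 132 to 218 with T3 and 47.3 to 129 in the mutants, and all 6 were higher with T3 by that test. Ncor1 itself, read over the whole transcript, was 12.1 to 13.9 RPKM in the mutants and 14.1 to 18.5 RPKM in the 8 WT libraries, all above the mutants. This is no full check of the label, because RNA lacking a few exons is still counted. In whole liver, fewer cells of a type and less RNA per cell cannot be told apart.

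The promoters of the 2 members that fell with T3 (Fbp1 and Slc2a2) and of the best known hormone targets that did not pass the test (Pck1 and G6pc) are shown as the 250 bases before the start site, 5′ to 3′ on the gene's strand, from RefSeq on GRCm38.p6. Capitals mark letters matching any of 7 motifs searched on both strands: the nuclear receptor half-site AGGTCA, its direct repeat with a spacer of 4 bases, the E-box CACGTG, the cyclic AMP response half-site ACGTCA, the TATA box TATAAA, the forkhead motif TGTTTAC and the HNF4 motif CAAAGTCCA. The direct repeat holds the half-site within it.
Fbp1: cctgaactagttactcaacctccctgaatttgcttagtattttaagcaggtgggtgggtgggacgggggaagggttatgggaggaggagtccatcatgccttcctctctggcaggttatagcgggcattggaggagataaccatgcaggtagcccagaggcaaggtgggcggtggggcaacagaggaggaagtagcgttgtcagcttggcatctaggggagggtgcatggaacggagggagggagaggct
Slc2a2: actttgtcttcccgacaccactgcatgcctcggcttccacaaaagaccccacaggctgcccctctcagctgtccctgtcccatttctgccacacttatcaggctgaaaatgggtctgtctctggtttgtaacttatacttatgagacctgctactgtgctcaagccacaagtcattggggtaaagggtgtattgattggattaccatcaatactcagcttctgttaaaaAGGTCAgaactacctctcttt
Pck1: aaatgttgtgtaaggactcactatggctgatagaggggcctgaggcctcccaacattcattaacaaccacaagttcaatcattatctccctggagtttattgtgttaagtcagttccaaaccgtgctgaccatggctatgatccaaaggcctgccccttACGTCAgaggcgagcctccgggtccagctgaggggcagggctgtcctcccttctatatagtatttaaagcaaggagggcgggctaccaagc
G6pc: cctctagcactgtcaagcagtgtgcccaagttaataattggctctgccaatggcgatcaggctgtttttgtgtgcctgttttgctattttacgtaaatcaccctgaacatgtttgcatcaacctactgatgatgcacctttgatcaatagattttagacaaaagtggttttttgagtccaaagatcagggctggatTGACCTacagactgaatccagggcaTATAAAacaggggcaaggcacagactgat
These windows are chr13:62888283-62888532 on the minus strand for Fbp1, and on the plus strand chr3:28697653-28697902 for Slc2a2, chr2:173152823-173153072 for Pck1 and chr11:101367466-101367715 for G6pc. Slc2a2 has a nuclear receptor half-site on its own strand 21 to 16 bases before the start, and G6pc has 1 on the other strand 54 to 49 bases before it. Pck1 has a cyclic AMP response half-site 91 to 86 bases before its start, and G6pc a TATA box 29 to 24 bases before its own. The Fbp1 window matched none of the 7 motifs, which says only that these letters are not in it. Among 32851 promoter windows of the same length, 14% held AGGTCA, 6.47% held ACGTCA, 12.4% held TATAAA, 6.02% held CACGTG, 3.17% held TGTTTAC, 0.384% held CAAAGTCCA and 0.0152% held the direct repeat.

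Groups were compared with limma on log2(RPKM + 0.1) over all expressed genes. A gene was called higher or lower at a Benjamini-Hochberg adjusted p under 0.01, a threshold the study also used. For T3 the study, which tested with DESeq2, required a log2 fold change of 1 in size as well. Differences below are on the log2(RPKM + 0.1) scale with their standard error (SE). For the effect of T3 in WT liver, none of the 8 members was called higher and 2 were called lower, Fbp1 and Slc2a2. Of all 13941 genes tested, 24.5% were called higher, 7.71% lower and 32.2% in either direction. At an adjusted p under 0.05 the members passing were 5, with Pklr and Pcx lower and Pfkfb1 higher beside the 2 above, where 49.4% of all genes passed. With a log2 difference above 1 in size as a second condition, Fbp1 alone remained, as did 3.47% of all genes in the lower direction. The median difference of the 8 members was -0.30, against 0.23 for all genes tested. All 8 members passed the filter on low values in each of the 3 comparisons. The dots of each library by group and gene show both falls, and the wide spread of Pck1, G6pc and Pklr within groups.

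**Figure D1:**
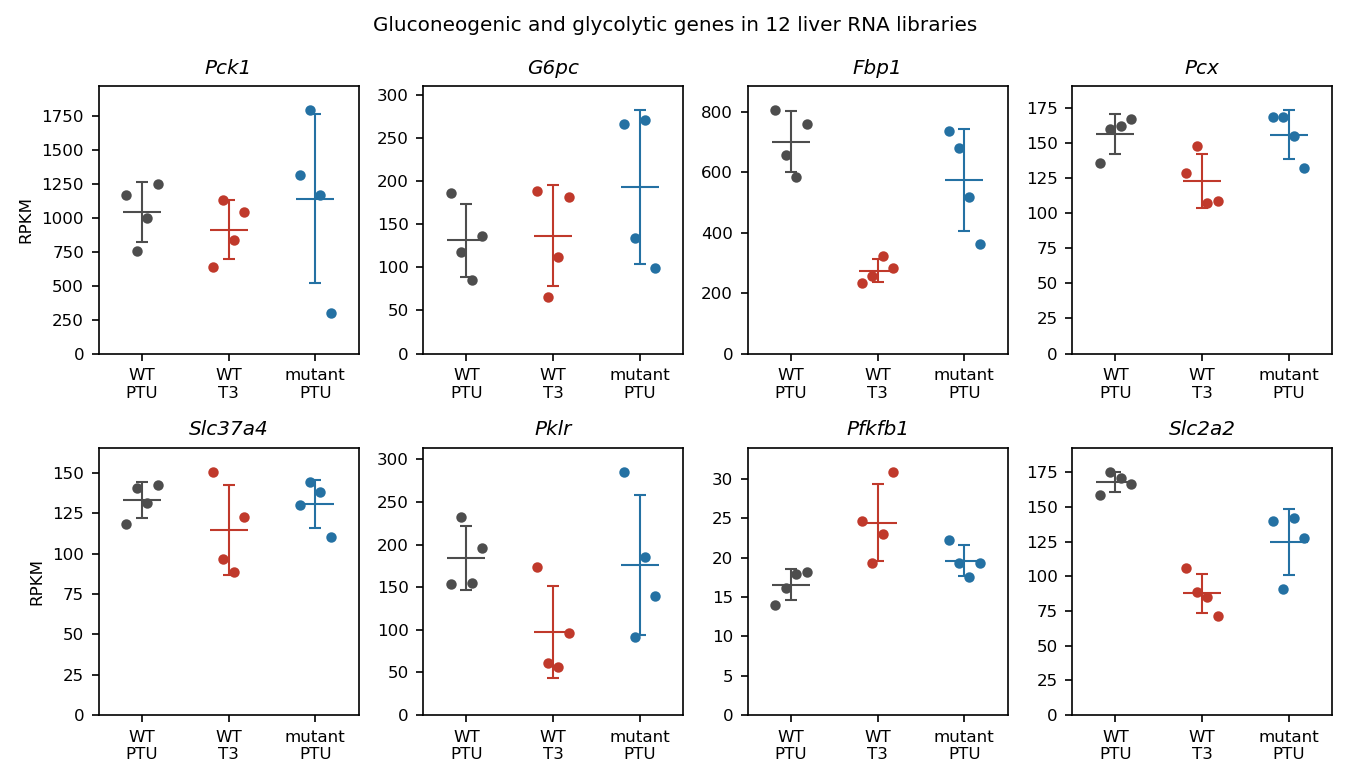
RPKM of each gene (vertical axes, from 0) in the 12 livers by group (horizontal axes; mutant is L-NCORdeltaID), with dots for single mice and the dash and bar for the mean ± SD of 4 mice. The T3 livers lie below all hypothyroid WT livers for Fbp1 (233 to 322 against 583 to 805) and Slc2a2 (71.3 to 106 against 158 to 175), and 1 mutant liver is low for Pck1 (298).

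Fbp1, whose product removes the phosphate that phosphofructokinase adds, stood at 805, 658, 583 and 759.8 RPKM in the hypothyroid WT livers. With T3 the 4 livers had 233, 258, 322 and 284 RPKM. Each T3 liver was below each hypothyroid WT liver, a separation found in the lower direction for 10.8% of the genes tested. The level fell to 0.391 of the hypothyroid mean, a difference of -1.35 (SE 0.14, 95% interval -1.66 to -1.05, adjusted p = 8.2e-05). Only 2.49% of the genes tested had a lower difference. The call held with each library left out in turn (-1.44 to -1.28), and the difference was -1.52 (adjusted p = 0.00025) without replicate 3 of both groups. Relative to the summed hepatocyte markers, Fbp1 was 13.4 to 16.6 RPKM per 1000 RPKM of markers in hypothyroid WT and 7.92 to 13.1 with T3. These ranges nearly touch, and the value of 13.1 is that of T3 replicate 3, which held pancreatic RNA. The means of 14.4 and 9.75 lie closer together than in RPKM. The share of genes whose groups are apart on that scale was not counted.

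Slc2a2, the low-affinity carrier through which glucose crosses the hepatocyte membrane in both directions, stood at 158, 175, 171 and 166 RPKM in the hypothyroid WT livers. The T3 livers had 106, 88.5, 84.9 and 71.3 RPKM. The groups were again apart, and hypothyroid WT values were tight, with a coefficient of variation of 4.29%. The level fell to 0.522 of the hypothyroid mean, a difference of -0.95 (SE 0.11, 95% interval -1.20 to -0.70, adjusted p = 0.0002). The call held without each library in turn (-1.05 to -0.86) and without replicate 3 of both groups (-0.93, adjusted p = 0.003). Relative to the summed hepatocyte markers, however, Slc2a2 was 2.98 to 3.93 RPKM per 1000 RPKM of markers in hypothyroid WT and 2.14 to 3.59 with T3, and these ranges overlap. The part of the hepatocyte markers in the fall was not tested. Alb, itself lower with T3, is the largest part of the markers on this scale. On it the order of the groups turned for Slc37a4, at 2.44 to 3.01 in hypothyroid WT and 3.55 to 5.11 with T3. It also turned for Pcx, with means of 3.23 and 4.36, and for Pck1, with means of 21.4 and 32.2 and overlapping ranges. The log2 differences of Slc37a4, Pcx and Pck1 were negative. G6pc, with a log2 difference of -0.003, had means of 2.67 and 4.69 on the marker scale. The part of Alb in the turned order was not tested.

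Pfkfb1, whose product sets the level of the activator of phosphofructokinase, differed in the opposite direction. Its levels were 14.04, 16.2, 17.95 and 18.2 RPKM in hypothyroid WT and 24.6, 19.3, 23.0 and 30.9 RPKM with T3. All T3 livers were above all hypothyroid WT livers, as they were for 35.8% of the genes tested. The difference of 0.54 (SE 0.14, 95% interval 0.22 to 0.87) had an adjusted p of 0.012 and just missed the threshold. It passed when all 12 libraries entered 1 fit (adjusted p = 0.0059) and without T3 replicate 2 (0.65, adjusted p = 0.0045), while scaling each library to the median of gene ratios lowered it to 0.31 (adjusted p = 0.0995).

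Pklr, the last enzyme of glycolysis in liver and an established target of carbohydrate feeding, had 154, 233, 155 and 196 RPKM in hypothyroid WT and 173, 61.5, 56.5 and 96.6 RPKM with T3. Of the T3 livers, 3 lay below all hypothyroid WT livers and replicate 1 did not. The difference of -1.06 (SE 0.33, adjusted p = 0.024) was as large as that of Slc2a2 but did not pass, and without T3 replicate 1 it was -1.38 with an adjusted p of 0.0014. Pklr shares 711 bases of annotation with Hcn3 on the opposite strand, which averaged 8.3, 3.02 and 8.65 RPKM in the 3 groups. No strand setting is given for the counting, so reads in the overlap cannot be assigned to 1 of the 2 genes. The same holds for Pcx, which shares 3883 bases with Lrfn4 (1.61, 1.37 and 1.56 RPKM in hypothyroid WT, T3 and mutant), and for Pfkfb1, which shares 1640 bases with Apex2 (4.05, 3.15 and 2.9 RPKM). Slc2a2 shares 25690 bases with 1700112D23Rik and Fbp1 140 bases with Gm17367, both also on the opposite strand, and these 2 neighbours were not analysed here.

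Pcx, which feeds pyruvate into oxaloacetate, had 136, 160.3, 162 and 168 RPKM in hypothyroid WT and 129, 148, 107 and 109 RPKM with T3. The groups overlapped through 2 libraries, and the difference of -0.35 (SE 0.12, adjusted p = 0.033) was not called. Pcx passed after scaling to the median of gene ratios (-0.59, adjusted p = 0.0087) and without T3 replicate 2 (-0.45, adjusted p = 0.0092). Slc37a4, the glucose-6-phosphate carrier, had 118 to 142 RPKM in hypothyroid WT and 88.6 to 151 RPKM with T3, a difference of -0.24 (SE 0.16, adjusted p = 0.22).

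The entry and exit enzymes of gluconeogenesis did not separate the groups. Pck1 had 1169.9, 754, 1001 and 1252 RPKM in hypothyroid WT and 641, 1136, 838 and 1042 RPKM with T3. The ranges overlapped, and the 95% interval of the difference ran from -0.69 to 0.29 (adjusted p = 0.46). G6pc had 186, 117, 84.7 and 137 RPKM in hypothyroid WT and 188, 65.7, 112 and 181 RPKM with T3. Its interval ran from -0.79 to 0.79 (adjusted p = 0.99), so that with 4 mice a group a change of either sign up to that size is not excluded.

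**Figure D2:**
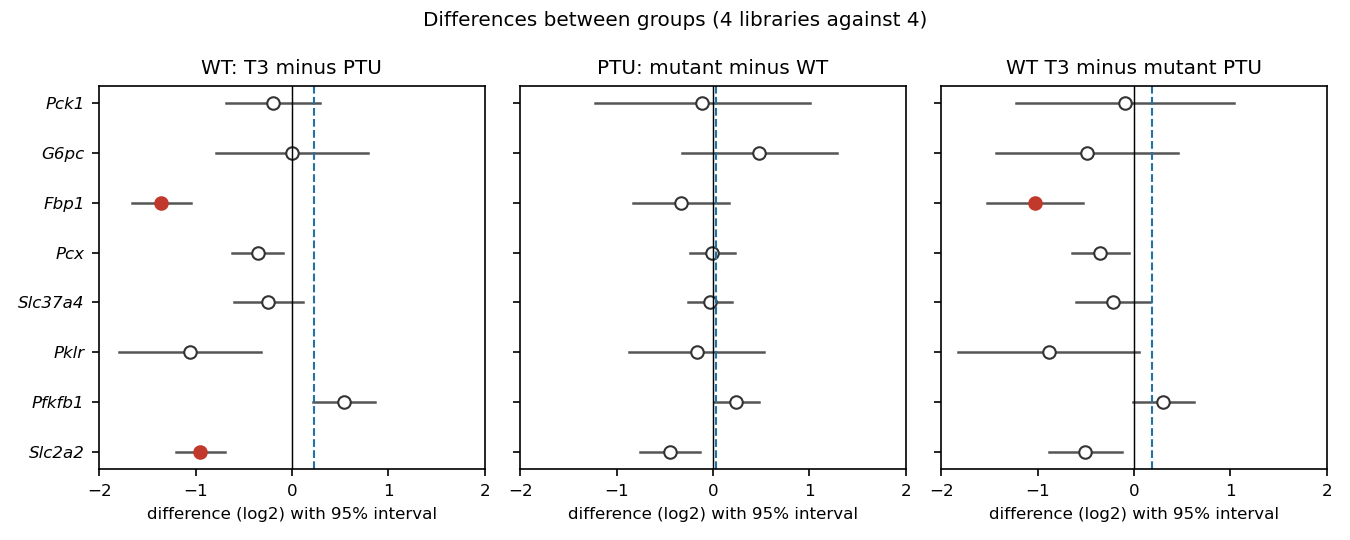
Differences between groups on the log2(RPKM + 0.1) scale (horizontal axes) for each gene, with 95% intervals as lines, filled circles for calls at an adjusted p under 0.01 and a dashed line for the median of all genes tested. Fbp1 and Slc2a2 are filled for T3 (-1.35 and -0.95), none is filled for the mutant, and Fbp1 is filled for T3-treated WT against the hypothyroid mutant (-1.03).

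The hypothyroid mutant was compared with hypothyroid WT to ask how much of a T3-like state follows from a corepressor that cannot reach the receptor. None of the 8 members was called, with 1.27% of 13790 genes called in either direction (0.725% higher and 0.544% lower). None passed at an adjusted p under 0.05 either, where 4.36% of all genes did, and 2831 genes had an unadjusted p under 0.05. Among the members 2 had an unadjusted p under 0.05 (Slc2a2, 0.01, and Pfkfb1, 0.045). The hypothyroid WT libraries are the controls of both the T3 and the mutant comparison, so these 2 sets of differences share their controls. The median difference of the members was -0.07, against 0.03 for all genes tested.

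Slc2a2 in the mutants was 139.6, 90.5, 142 and 127 RPKM, and each value was below the lowest hypothyroid WT liver at 158. Such a separation in the lower direction was seen for 5.36% of the genes tested. The difference was -0.45 (SE 0.14, 95% interval -0.76 to -0.14, adjusted p = 0.11), and without mutant replicate 2, the lowest, it was -0.30 (adjusted p = 0.077). Mutant replicate 2 was also the mutant liver with the highest macrophage markers, 129 RPKM against 47.3 to 72.3 in the others, and the part of that in the value was not tested. Pfkfb1 was 22.3, 19.3, 17.6 and 19.3 RPKM in the mutants, which overlapped hypothyroid WT in 1 library (0.24, SE 0.10, adjusted p = 0.23).

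Fbp1 was 738, 681, 519 and 363 RPKM in the mutants, overlapping hypothyroid WT, with a difference of -0.33 (SE 0.22, adjusted p = 0.44) that was -0.12 without mutant replicate 4. Pcx at 132 to 169 RPKM and Slc37a4 at 110.04 to 144 RPKM had differences of -0.01 and -0.03 with 95% intervals of -0.24 to 0.23 and -0.26 to 0.20. For Pklr the mutants had 285, 92.0, 185 and 140.1 RPKM (-0.17, SE 0.31, adjusted p = 0.80). G6pc stood at 267, 134, 271 and 98.9 RPKM (0.48, SE 0.36, adjusted p = 0.49), and the difference ranged from 0.28 to 0.76 with 1 library left out in turn.

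Pck1 varied most among the mutants, with 1314, 1794, 1167 and 298 RPKM, a 54.6% coefficient of variation against 21.1% in hypothyroid WT. Mutant replicate 4 had the lowest level of its group for all 5 gluconeogenic members (Pck1, G6pc, Fbp1, Pcx and Slc37a4), a pattern noticed after the values were seen. Without that library the Pck1 difference changed from -0.11 to 0.45 (adjusted p = 0.24). Within-group spread was large for 3 members in general. The SD of log2 values within groups was 0.72 for Pck1, 0.65 for G6pc and 0.61 for Pklr, at percentiles 98, 97.5 and 96.9 of 4260 genes with a mean of at least 10 RPKM, whose median SD was 0.15. The other 5 members lay at percentiles 61 to 87.3.

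Hyperthyroid WT was also set against the hypothyroid mutant, where genotype and hormone both differ and cannot be told apart. Fbp1 was the only member called, lower in T3-treated WT (-1.03, SE 0.22, adjusted p = 0.0068), where 5.7% of 14017 genes were called lower, 15.5% higher and 21.2% in either direction. All T3-treated WT livers were below all mutant livers, 233 to 322 against 363 to 738 RPKM, as were 9.57% of the genes tested in that direction. This call rested on the full set of libraries: with 1 left out in turn it was lost for all 4 T3 replicates and for mutant replicates 1, 2 and 3 (adjusted p from 0.013 to 0.020), and it held without mutant replicate 4. It was also lost with no filter on low values (adjusted p = 0.012) and with the replicate number as a block (adjusted p = 0.023). Slc2a2 differed by -0.50 (SE 0.17, adjusted p = 0.041), which with Fbp1 makes 2 members under 0.05 against 38.6% of all genes, with 71.3 to 106 RPKM against 90.5 to 142. Slc2a2 passed without mutant replicate 2 (-0.65, adjusted p = 0.008). The mutant mean of Slc2a2, 125 RPKM, lay between the T3-treated (87.6) and hypothyroid (168) WT means.

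Ratios between genes were taken within each library, which removes differences in library scaling. Fbp1 over Pfkfb1 and Pck1 over Pklr set genes of opposing roles against each other, and Slc2a2 over Slc2a1 sets glucose carriers of different cells against each other. Fbp1 over Pfkfb1 was 57.4, 40.7, 32.5 and 41.8 in hypothyroid WT and 9.48, 13.4, 14.0 and 9.18 with T3. In the mutants it was 33.1, 35.3, 29.5 and 18.8. The T3 livers lay below every liver of the other groups, and the mutants overlapped hypothyroid WT. Against hypothyroid WT this had to be so, because both genes separated these groups in opposite directions, and it is no further result. The share of gene pairs that separate was not counted. Slc2a2 over Slc2a1, the carrier of most other cells, was 39.7 to 61.2 in hypothyroid WT, 13.8 to 28.6 in the mutants and 7.79 to 17.8 with T3. All mutants thus lay below all hypothyroid WT livers, which follows from the levels of both genes and is no further result. Slc2a2 was lower in every mutant, a separation seen for 5.36% of the genes tested, and was not called (adjusted p = 0.11). Slc2a1 itself was at 4.98 to 6.55 RPKM in the mutants against 2.59 to 4.31 in hypothyroid WT. The share of genes separated in the higher direction was not counted for the mutant. Slc2a1 was called higher with T3 (1.08, adjusted p = 0.0023) and not called in the mutants (0.75, adjusted p = 0.034). Pck1 over Pklr overlapped between all groups, from 3.24 to 7.61 in hypothyroid WT, 3.70 to 18.5 with T3 and 2.13 to 19.5 in the mutants.

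**Figure D3:**
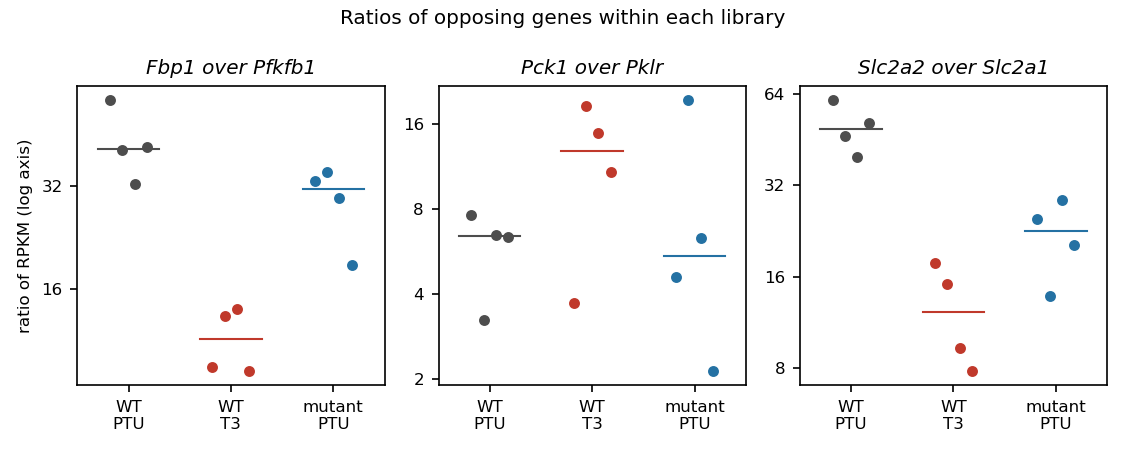
Ratios of RPKM within each library (vertical axes, log scale), with dots for single mice by group and a line at the median. The genes have opposing roles, except that Slc2a2 and Slc2a1 are both glucose carriers. The T3 livers lie below all others for Fbp1 over Pfkfb1 (9.18 to 14.0), the hypothyroid WT livers lie above all others for Slc2a2 over Slc2a1 (39.7 to 61.2), and Pck1 over Pklr overlaps between all groups.

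The rest of the pathway was followed in 6 lists of 91 genes, of which 89 were tested for T3. Of these, 29 were called higher (32.6%) and 13 lower (14.6%), against 24.5% and 7.71% of all genes tested. Because the median of all genes moved by 0.23, libraries were also scaled to the median of gene ratios, after which 1729 genes were called higher and 1932 lower in place of 3413 and 1075. Of the listed genes 19 were then called higher and 18 lower, so the larger number of higher calls among them was not kept. Fbp1 and Slc2a2 differed by -1.59 and -1.19 on that scale. Named genes that lose their call under it are marked below. With 1 library left out in turn, Pgk1, Tpi1, Eno1, Slc25a1 and Hk1 kept their call in 5, 3, 2, 1 and 1 of 8 fits. Foxo3 and Klf15 kept it in 6 and 1 of 8. The other genes named below for T3 kept it in all 8, except G6pc2, described below. Without replicate 3 of both groups, calls were lost for Slc2a9 (adjusted p = 0.017), Aldoc (0.01), Slc25a1 (0.043), Pgk1 (0.014), Eno1 (0.012) and Hk1 (0.06). Those of Foxo3 (0.021) and Klf15 (0.032) were lost too.

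Among 15 genes of glycolysis entry and control, 5 were called higher with T3 and none lower, and with the other scaling 4 were called higher and 3 lower. Pfkfb4, a paralogue of Pfkfb1, rose from 0.165 to 7.96 RPKM (4.75, adjusted p = 2.3e-05), with 3.90 to 12.6 RPKM in the T3 livers and at most 0.192 RPKM in hypothyroid WT. The hexokinases Hk3 and Hk2, mostly of other cells than hepatocytes, rose from 0.912 to 3.58 RPKM (1.90, adjusted p = 4.5e-05) and from 0.162 to 0.572 RPKM (1.38, adjusted p = 0.00043). Pkm, the pyruvate kinase of other tissues, rose from 2.26 to 4.47 RPKM (0.97, adjusted p = 0.00068). Hk1 rose from 0.61 to 1.04 RPKM (0.69, adjusted p = 0.0096), and that call was lost with the other scaling (0.48, adjusted p = 0.044). Hk3, Hk2 and Pkm moved together with the macrophage markers given above, and the part of those cells was not tested.

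Of 10 tested genes of the reversible steps that both directions share, 3 were called higher and 1 lower. Aldoc, an aldolase best known from brain, fell from 6.48 to 2.05 RPKM (-1.71, adjusted p = 0.0012). Tpi1, Pgk1 and Eno1 rose by 0.42, 0.56 and 0.79 (adjusted p = 0.0039, 0.0039 and 0.0053), and all 3 lost their call with the other scaling (0.19, 0.33 and 0.55).

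Among 14 gluconeogenic partner genes 2 were called higher and 3 lower. The aspartate-glutamate carrier Slc25a13, which exports aspartate from mitochondria, fell from 109 to 57.0 RPKM (-0.94, adjusted p = 3e-05). Pgm2 fell from 133 to 78.5 RPKM (-0.76, adjusted p = 3.6e-05) and the citrate carrier Slc25a1 from 152 to 118 RPKM (-0.38, adjusted p = 0.008). Pgm1 rose from 1.79 to 2.75 RPKM (0.59, adjusted p = 0.0018), which leaves G6pc2, a paralogue of G6pc, as the other higher call. G6pc2 was at 0.013 to 0.017 RPKM in hypothyroid WT and 0.111 to 0.251 RPKM with T3, and passed the filter on low values only through the T3 libraries, so its call follows from the filter and is not read as a result.

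Of 16 genes that bring substrate into gluconeogenesis, 5 were called higher and 4 lower. The monocarboxylate carrier Slc16a7 fell from 13.6 to 2.73 RPKM (-2.27, adjusted p = 8e-06), the glycerol channel Aqp9 from 172 to 110 RPKM (-0.65, adjusted p = 0.00011) and the amino acid carrier Slc38a4 from 337 to 147 RPKM (-1.21, adjusted p = 0.00013). Mitochondrial glycerol-3-phosphate dehydrogenase (Gpd2), a classic thyroid hormone target, rose from 4.25 to 33.4 RPKM (3.07, adjusted p = 7.7e-05). Mpc2, a subunit of the mitochondrial pyruvate carrier, rose from 120.1 to 221 RPKM (0.88, adjusted p = 2.7e-05). These 5 calls were also made with the other scaling.

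Among 9 tested sugar carriers 4 were called higher and 2 lower. Slc37a3 and Slc37a1, paralogues of Slc37a4, rose from 4.64 to 21.5 RPKM (2.19, adjusted p = 2e-06) and from 0.319 to 3.61 RPKM (2.89, adjusted p = 0.0006). Slc2a5, the fructose carrier, fell from 4.71 to 1.09 RPKM (-2.07, adjusted p = 0.00037) and the urate carrier Slc2a9 from 15.1 to 10.6 RPKM (-0.51, adjusted p = 0.0029). Of the 25 regulators, 10 were called higher and 3 lower, and 6 higher and 4 lower with the other scaling. The carbohydrate-response factor ChREBP (Mlxipl) rose from 79.5 to 171 RPKM (1.12, adjusted p = 0.00015) and its partner Mlx from 17.0 to 33.8 RPKM (0.99, adjusted p = 4.8e-05). The glucocorticoid receptor (Nr3c1), Cebpb and Foxo1, regulators of Pck1 and G6pc, rose by 0.73, 2.31 and 0.71 (adjusted p = 0.00012, 0.00027 and 0.00053), while the differences of Pck1 and G6pc did not pass. The 3 regulators called lower were Nr0b2, Foxo3 and Klf15, which fell by 1.11, 0.54 and 0.57 (adjusted p = 0.0025, 0.0033 and 0.007).

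In the mutants 2 of 88 tested genes of the lists were called higher (2.27%) and none lower, against 0.725% and 0.544% of all genes tested. Cebpb rose from 12.8 to 32.2 RPKM (1.32, adjusted p = 0.0026) and Gapdh from 3.92 to 25.2 RPKM (2.67, adjusted p = 0.0014). The Cebpb call was lost without hypothyroid WT replicate 4 or mutant replicate 3, and also when all 12 libraries entered 1 fit. The Gapdh call held in all 8 fits with 1 library left out and with the other scaling (2.64, adjusted p = 0.0014). Gapdh has many near-identical pseudogenes, and how its reads were divided among them was not tested, so its value is uncertain. In the 4 lists with no call, the 2 most abundant genes over hypothyroid WT and mutant livers were Mdh1 and Got1, Khk and Tkfc, Tat and Slc38a4, and Slc2a9 and Slc2a8, with adjusted p from 0.23 (Tkfc) to 0.98 (Slc2a9). In T3-treated WT against the mutant, 16 of 89 were called higher and 12 lower (18% and 13.5%, against 15.5% and 5.7% of all genes). With the other scaling 6 of them were called higher and 18 lower, and of all genes 1052 and 1281, so that the balance turned to lower calls. The 5 smallest adjusted p were those of Slc37a3 (2.32, adjusted p = 8.9e-07), Slc16a7 (-2.08, adjusted p = 2.1e-05), Mpc2 (1.005, adjusted p = 4.1e-05), Pfkfb4 (4.37, adjusted p = 8.5e-05) and Gpd2 (2.85, adjusted p = 0.00013).

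**Figure D4:**
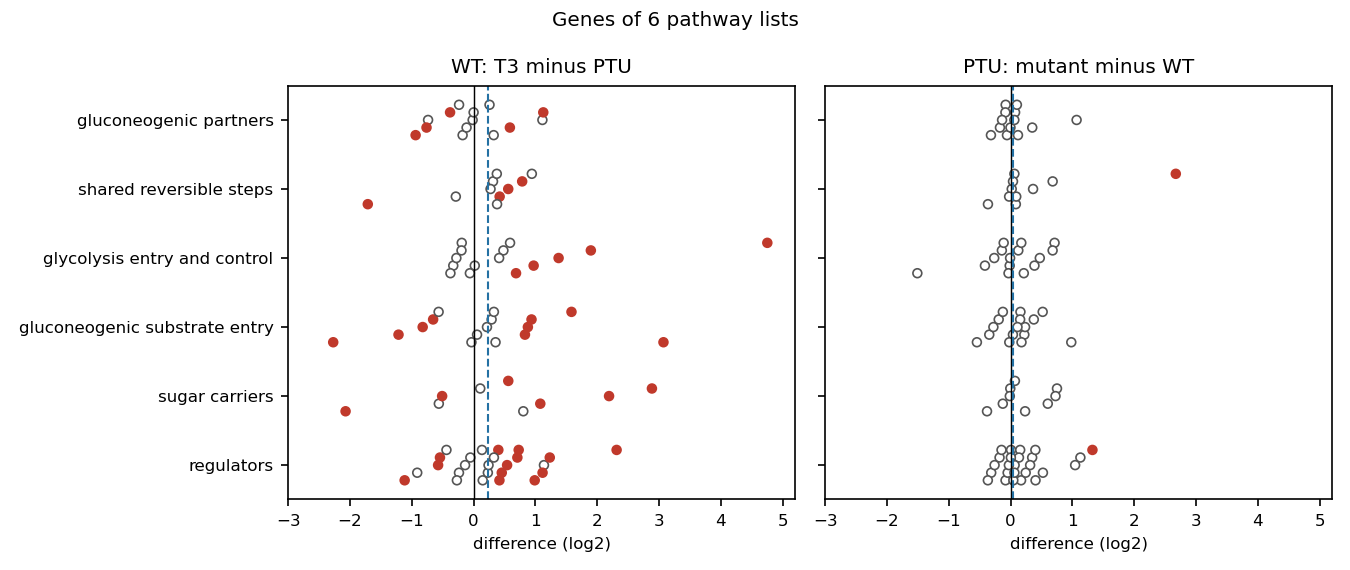
Differences on the log2(RPKM + 0.1) scale (horizontal axes) for the genes of 6 lists (rows), with a dot per gene, filled where the adjusted p was under 0.01, and a dashed line at the median of all genes tested. With T3 (left) 29 of 89 genes are filled on the right side and 13 on the left side, and in the mutant (right) only Cebpb and Gapdh are filled.

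The genes most like each member over the 12 libraries were sought among 10663 genes with a mean of at least 1 RPKM, by Pearson's r of log2(RPKM + 0.1). These values describe 12 libraries that share group means and depth. Fbp1 was closest to Gstt2 and Acot3 (r = 0.98 for both), and Slc2a2 to the growth hormone receptor Ghr and to Cyp4v3 (0.95 for both). Pklr was closest to Hcn3, its overlapping neighbour (0.98), and Cyb5r3 (0.91). Pfkfb1 was closest to Ccdc122 (0.95) and Msrb2 (0.93), Pcx to Asgr1 (0.92) and Mfsd2a (0.91), and Slc37a4 to Slc47a1 and Nmrk1 (0.87 for both). Pck1 was closest to Ctcfl (0.90), which lies 33.5 kb away on the other strand, and Sh3bgrl3 (0.86). For G6pc the closest were H2-Q9 and H2-Q7 (0.85 for both), 2 near-identical genes whose reads may be split between them.

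Positions on mm9 (GENCODE M1 on NCBIM37) are chr2:172978549-172984774 for Pck1, chr11:101228875-101239217 for G6pc, chr13:62966113-62989642 on the minus strand for Fbp1, chr19:4510472-4621752 for Pcx, chr9:44205182-44211046 for Slc37a4, chr3:88940064-88950706 for Pklr, chrX:147022772-147078421 for Pfkfb1 and chr3:28596825-28627278 for Slc2a2. The authors also deposited 37200 regions acetylated on histone H3 (H3K9Ac or H3K27Ac), a mark of active promoters and enhancers, as coordinates without signal. The start sites of all 8 members lay in such a region, as did those of 95.8% of 3898 genes with a mean of at least 10 RPKM and 1.48% of 3857 genes listed at 0 in all libraries. The region at Slc2a2 (chr3:28593568-28630177) spans 36.6 kb and the whole gene, and 98.3% of 3726 start-site regions of genes at 10 RPKM or more were shorter. The region at Fbp1 spans 26.1 kb (95.4% shorter) and that at Pck1 23 kb (94.3% shorter), whereas that at Pklr spans 9.14 kb (67.9% shorter). The median of those regions was 5.99 kb. Within 100 kb of the start site lay between 3 regions (Pfkfb1) and 15 (G6pc). The coordinates hold no group, so acetylation with T3 or in the mutant is not given here.

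**Figure D5:**
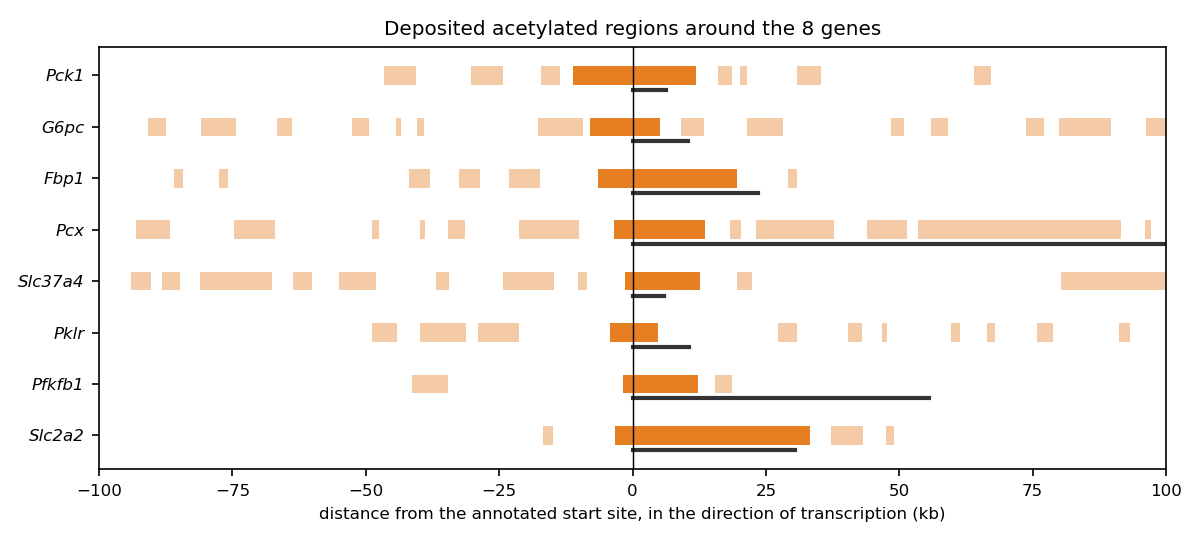
Deposited acetylated regions (bars) within 100 kb of the annotated start site of each gene, drawn by distance in the direction of transcription, with the region that holds the start site in darker orange and the gene as a black line below, cut at 100 kb for Pcx. The start-site region spans the whole gene at Pck1, Slc37a4 and Slc2a2 and is longest at Slc2a2 (36.6 kb).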

How the data were processed

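The authors sequenced poly(A) RNA from frozen liver on 2 instruments for each sample, aligned the reads to mm9 with STAR and quantified them with HOMER (versions not given in the sources used here). As deposited, the table holds RPKM, scaled by the authors to transcript length and library size, and 0 per-sample columns were left unused. Counts behind the authors' DESeq2 tests were not analysed here. The table had 31370 transcripts, 1 of them without a gene name. A gene entered a comparison if 4 or more of its 8 libraries reached 0.1 RPKM. Values were transformed to log2(RPKM + 0.1), which understates the fold of low genes, and each pair of groups was fitted alone in limma 3.58.1 under R 4.3.3 with a variance trend. These steps were tested on simulated data.

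Groups came from the labels. The other 44 of 56 samples (ChIP) entered, if at all, only through the deposited coordinates of acetylated regions, a bed file without signal. The paper mapped such regions from H3K27Ac and H3K9Ac in livers of mice given PTU or PTU and T3. The members and lists were chosen with earlier results of these data known. A few genes of the lists are not reported here and were left out of the list counts. The text names the 8 members, the called genes of each list (at most the 5 with the smallest adjusted p, or the 2 most abundant where none was called, and 5 over all lists in the third comparison), the 2 genes most like each member, and genes overlapping or flanking them. The regulators called lower with T3 are named beyond that limit. Promoters of all 8 members were found in RefSeq (GRCm38.p6). Alternatives changed the pseudocount, filter, libraries, block, trend, scaling, threshold or transcript.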

Additional observations from a re-analysis of the deposited data

How the results depend on the processing

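With T3 the members called were 2, and 2 to 4 with 1 library left out in turn (4 without T3 replicate 2, which added Pcx and Pfkfb1), 5 at an adjusted p under 0.05 and 1 with a log2 difference above 1 in size, where Slc2a2 is lost. Calls over all genes, 4488, became 6880 at an adjusted p under 0.05, 1639 with a log2 difference above 1 in size, and 2683 without replicate 3 of both groups, an alternative chosen after seeing the data. In the mutant 0 members were called under every alternative run, while the 175 calls over all genes became 601 at 0.05, 45 with the replicate number as a block, and 67 to 187 with 1 library left out. Leaving out hypothyroid WT replicate 1, 2, 3 or 4 or mutant replicate 1 or 3 moved that count by over 1.5 times (89, 67, 68, 67, 97 and 74). For T3-treated WT against the mutant the members called, 1, became 0 with no filter, 0 with the replicate block and 2 at 0.05, and were 0 or 1 with 1 library left out. Calls over all genes, 2975, became 1642 with the block, 5407 at 0.05, 1195 with a log2 difference above 1 in size, and 1651 to 2672 with 1 library left out (1822 and 1978 without T3 replicates 3 and 4, and 1651 without mutant replicate 3). With no filter, genes listed at 0 in all libraries compared were still dropped.

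Some differences that were not called changed sign with 1 library left out. G6pc with T3 ranged from -0.197 to 0.309. In the mutant Pck1 ranged from -0.413 to 0.45, Pcx from -0.0713 to 0.0728, Slc37a4 from -0.0868 to 0.0493 and Pklr from -0.443 to 0.101. Pck1 in T3-treated WT against the mutant ranged from -0.65 to 0.214.

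Same-numbered libraries did not deviate together. Correlations of their deviations from the group means ran from -0.145 to 0.175 over 12 pairs, and 4 of 12 libraries correlated best with their own number, so the numbers were not taken as pairs. Under the replicate block the T3 comparison kept 2 members called. The cause of these shifts was not tested. RPKM steps give relative depth only, and with 4 mice a group the intervals of Pck1, G6pc and Pklr are wide.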
